A study of Mus musculus with 8 samples.

Results

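Transcripts of 33 peroxisome genes were followed in AML-12 cells, a mouse hepatocyte line derived from mice carrying a human TGF-alpha transgene. The 33 genes were taken by symbol from a table of 21983 genes, by a rule that uses no measured value. The list was chosen with earlier results of these data known. They comprised 12 Pex genes of peroxisome biogenesis, 17 enzymes of the peroxisomal matrix, 3 ABC transporters of the Abcd family and Far1, an enzyme anchored in the peroxisomal membrane. RNA-seq counts came from 4 libraries of AML-12 cells overexpressing Gm47544, an antisense RNA gene of the mouse in the GENCODE annotation, whose titles name no vector, and from 4 libraries of AML-12 cells labelled wild type that carried pLKO.1, a lentiviral vector. Both groups were grown in DMEM with fetal bovine serum, with no treatment given in the labels. Gm47544 itself was not analysed here, so its level could not be used to check the labels. Whether libraries were grown as separate cultures is not stated in the labels, so the spread behind each p-value is that between these libraries and may be technical.

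Peroxisomes are small organelles that shorten very long and branched fatty acids by beta-oxidation, remove hydrogen peroxide with catalase, and carry out the first steps of ether lipid synthesis. In the liver they also shorten the side chain of bile acid precursors. Pex proteins insert the membrane proteins and import the folded matrix enzymes. Cargo receptors bind enzymes in the cytosol, dock at the membrane, and are then ubiquitinated and pulled back out for another round.

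Library totals ran between 11016907 and 17338310 counts with Gm47544 overexpression and between 12256376 and 18965662 counts in controls. The 9 hepatocyte markers summed to 4113 to 4571 CPM (counts scaled to a common library size) with overexpression and 4348 to 6989 CPM in controls, with Apoa2 close to 0 in both. They moved in opposite directions: Alb was called higher (267 CPM with overexpression, 22.3 CPM in controls), Ttr (log2 fold change -2.25), Serpina1a (-1.69), Trf (-0.99) and Krt18 (-0.59) lower, and Hnf4a, Krt8 and Apoa1 were not called. The 5 cholangiocyte markers summed to 4475 to 5076 CPM with overexpression and 2788 to 4139 CPM in controls, where Spp1 alone was called higher (2731 CPM with overexpression, 943 CPM in controls) and Krt19 (log2 fold change -0.40) and Sox9 (-0.66) were called lower. The 5 stellate markers summed to 9.86 to 17.4 CPM with overexpression and 3.56 to 5.47 CPM in controls, and the 5 Kupffer markers to 9.94 to 13.2 CPM with overexpression and 26.7 to 32.6 CPM in controls. The 5 endothelial markers summed to 1.37 to 2.18 CPM with overexpression and 0.0625 to 0.536 CPM in controls. The stellate marker Lrat and the Kupffer markers Adgre1 and Clec4f were at 0 in every library. The part of these marker levels in the results was not tested. Control library 3 stood apart from the other controls: on the first principal component it lay at 22.2, the overexpression libraries between -50.4 and -43.4, and the other controls between 50 and 60.7. Long genes also read higher with overexpression, the slope of log2 CPM on log2 exonic length, after centring each gene over the libraries, being 0.151 to 0.170 in the overexpression libraries, 0.0114 in control library 3 and -0.238 to -0.179 in the other controls. Alternative fits therefore removed the trend of each library on exonic length, or on the GC content of the transcripts, before testing.

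Peroxisome genes moved in both directions, mostly by less than 2-fold. Of the 33 genes, 31 passed the filter on low counts. Among these 31, 7 were higher with Gm47544 overexpression and 8 were lower at an adjusted p below 0.05 (edgeR quasi-likelihood test, Benjamini-Hochberg adjustment over all 11520 tested genes), and 16 were not called. That is 48.4% of the tested members, against 64.4% of all tested genes (32.3% higher and 32.1% lower). The largest rises were those of Far1 and Abcd3, a little over 2-fold, and the largest fall was that of Amacr, to 0.537 of the control level. Far1 and Abcd3 were the 2 of 31 members called with a change of at least 2-fold, a size reached by 20.5% of all tested genes, 11.5% higher and 9.02% lower. The groups did not overlap for 12 of 31 members, 6 with all overexpression libraries above and 6 with all below, against 56% of all tested genes (28.5% above and 27.5% below). Without control library 3, 7 members were higher and 12 lower, in a fit that called 77.4% of all tested genes (38.7% higher and 38.7% lower), and 20 of 31 did not overlap (64.5%, against 74.8% of all tested genes). The calls of Abcd3, Amacr, Crot, Decr2, Far1, Pex14 and Pex19 held under all 18 alternative settings of the fit, and the other 8 calls were each lost or reversed under at least 1 of them.

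**Figure D1:**
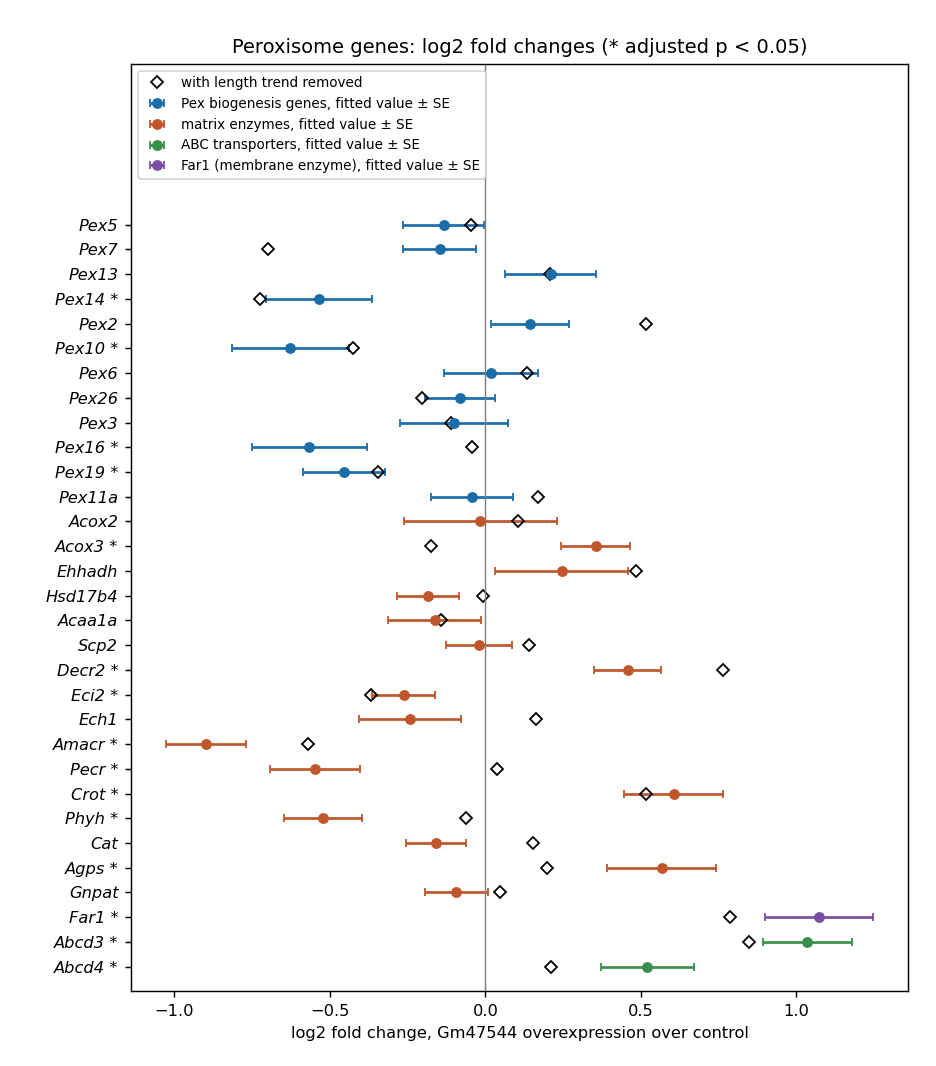
Fitted log2 fold change (overexpression over control) of the 31 tested peroxisome genes with its standard error, coloured by class, and the value with the trend on exonic length removed as an open diamond. The fitted values lie between -0.90 for Amacr and 1.07 for Far1, and the diamonds of Pecr, Phyh and Pex16 lie near 0.

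Promoter windows from RefSeq (GRCm38.p6), which cover an annotated start and mostly the bases before it, are shown for the pair that rose at least 2-fold, Far1 and Abcd3, and for an enzyme and an import gene whose calls held in all alternatives, Crot and Pex14. The windows lie at chr7:113513584-113513883 on the plus strand for Far1, chr3:121815253-121815552 on the minus strand for Abcd3, chr5:8997097-8997396 on the minus strand for Crot and chr4:149099794-149100093 on the minus strand for Pex14, each written 5′ to 3′ on the gene's strand. Capitals mark the letters of the motifs searched on both strands, which were the CCAAT box, the GC box (GGGCGG), the E-box (CACGTG), the TATA box (TATAAA), the NRF1 element, the DR1 element (AGGTCA repeated after 1 base of any kind) and a looser DR1 form in which the fourth base of each repeat is free.
Far1: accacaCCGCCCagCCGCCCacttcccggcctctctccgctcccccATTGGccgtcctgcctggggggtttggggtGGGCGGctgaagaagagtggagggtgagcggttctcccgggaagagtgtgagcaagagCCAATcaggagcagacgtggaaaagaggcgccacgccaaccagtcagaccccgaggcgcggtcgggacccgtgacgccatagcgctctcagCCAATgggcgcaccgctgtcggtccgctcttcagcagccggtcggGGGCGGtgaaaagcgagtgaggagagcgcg
Abcd3: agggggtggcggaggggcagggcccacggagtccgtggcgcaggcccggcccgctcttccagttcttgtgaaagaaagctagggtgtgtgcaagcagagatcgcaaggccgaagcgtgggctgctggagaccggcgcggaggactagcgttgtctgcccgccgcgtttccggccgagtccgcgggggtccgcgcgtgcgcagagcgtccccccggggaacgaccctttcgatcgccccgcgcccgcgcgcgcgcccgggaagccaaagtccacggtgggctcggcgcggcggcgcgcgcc
Crot: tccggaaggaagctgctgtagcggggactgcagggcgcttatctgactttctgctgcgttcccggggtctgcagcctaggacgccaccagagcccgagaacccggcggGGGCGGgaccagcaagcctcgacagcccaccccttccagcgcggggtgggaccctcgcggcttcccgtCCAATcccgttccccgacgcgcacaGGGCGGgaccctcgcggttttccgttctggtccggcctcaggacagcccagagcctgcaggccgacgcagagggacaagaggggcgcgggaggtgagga
Pex14: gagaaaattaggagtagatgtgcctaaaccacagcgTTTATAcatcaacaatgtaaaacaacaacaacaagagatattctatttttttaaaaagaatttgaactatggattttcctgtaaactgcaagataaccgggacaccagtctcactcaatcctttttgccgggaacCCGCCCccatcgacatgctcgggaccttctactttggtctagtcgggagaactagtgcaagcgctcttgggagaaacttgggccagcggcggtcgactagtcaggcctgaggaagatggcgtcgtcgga

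The window of Far1 held 3 CCAAT and 4 GGGCGG matches, that of Crot 1 CCAAT and 2 GGGCGG matches, that of Pex14 1 TATAAA and 1 GGGCGG match, and the Abcd3 window none of the 7. DR1 is the direct-repeat element bound by PPAR-alpha with RXR, the receptor pair known for inducing peroxisomal enzymes in rodent liver. Neither it nor the looser form, which contains it, was found in any of the 32 windows of the 27 members that had one, while 0.04% and 0.38% of all 32851 windows of this length held them. At such shares 32 windows would rarely hold a match, so its absence says nothing about these genes. CCAAT stood in the windows of 13 of the 27 members (14 of 32 windows, against 37.41% of all windows). GGGCGG stood in those of 21 members (22 of 32 windows, against 35.66%). A match is a description of the letters in these windows only.

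Neither import receptor was called. Pex5, the receptor for matrix enzymes with a C-terminal targeting signal, averaged 122 ± 5.26 CPM with overexpression and 134 ± 23.9 CPM in controls (SD, n = 4 each; log2 fold change -0.13, SE 0.13). Its control values were 140.5, 134, 102 and 159 CPM. Without control library 3 it was called lower at a log2 fold change of -0.27. It was also called lower at -0.20 with limma-voom with quality weights, another fit of all 8 libraries. With the GC trend removed it was instead called higher, at 0.19. Pex7, the receptor for enzymes with an N-terminal signal, averaged 42.4 ± 3.54 CPM with overexpression and 46.9 ± 4.43 CPM in controls (SD, n = 4 each; log2 fold change -0.15, SE 0.12). Pex7 has the longest exonic sequence of the members, 12092 bases, and with the length trend removed its log2 fold change was -0.70 and it was called lower, as it was with the GC trend removed.

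Of the docking pair that receives loaded receptors at the membrane, Pex14 fell and Pex13 was not called. Pex14 (chromosome 4, 148960535 to 149099876, minus strand, GRCm38) had 26.3, 26.2, 26 and 24.9 CPM in overexpression libraries 1 to 4, against 41, 37, 24.6 and 47.4 CPM in control libraries 1 to 4. The overexpression values lay close together and control library 3 lay just below them, so the groups overlapped, while the other controls were all higher. Pex14 had a log2 fold change of -0.54 (SE 0.17, with an edgeR adjusted p of 0.0146), which was -0.72 without control library 3 and -0.32 with the GC trend removed. An antisense gene, Gm17029, covers 28.3% of the exonic bases of Pex14, and as no source used here gives the strand setting of the counting, reads of both cannot be told apart. Pex13 averaged 54.7 ± 1.7 CPM with overexpression and 47.3 ± 10.1 CPM in controls (SD, n = 4 each; log2 fold change 0.21, SE 0.15).

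The RING ubiquitin ligase that marks receptors for recycling had 1 called member. Pex10, a RING subunit, fell to 6.86, 6.45, 7.06 and 5.06 CPM with overexpression, against 11.2, 9.17, 7.06 and 12 CPM in controls. Control library 3 again lay within the overexpression range and the other controls above it. This gave a log2 fold change of -0.63 (SE 0.19, with an edgeR adjusted p of 0.0107), -0.42 and still called with the length trend removed, and -0.29 with the GC trend removed, where the call was lost. Pex2, the partner subunit, averaged 90.9 ± 4.85 CPM with overexpression and 82.3 ± 13.1 CPM in controls (SD, n = 4 each; log2 fold change 0.14, SE 0.13). The direction of Pex2 depended on the correction, with called log2 fold changes of 0.52 once the length trend was removed and -0.22 once the GC trend was removed. Pex6, an ATPase that extracts ubiquitinated receptors, and Pex26, its membrane anchor, were not called and had log2 fold changes of 0.02 (SE 0.15) and -0.08 (SE 0.11). With the GC trend removed both were called higher, at 0.34 and 0.23.

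Of the 3 genes that insert peroxisomal membrane proteins, Pex19 and Pex16 fell. Pex19, the cytosolic chaperone of membrane proteins (chromosome 1, 172126755 to 172136493, plus strand, GRCm38), had 84.7, 79.8, 75.2 and 75.5 CPM with overexpression, against 121, 104, 83.2 and 124 CPM in controls. Overexpression library 1 lay just above control library 3, and the remaining controls were higher than every overexpression library. In the fit Pex19 changed by a log2 fold change of -0.45 (SE 0.13, with an edgeR adjusted p of 0.00879). Pex16, a membrane protein of the same route, had 16.6, 14.8, 18.5 and 17.1 CPM with overexpression, against 30.3, 22, 16.6 and 30.6 CPM in controls. Its log2 fold change of -0.57 (SE 0.19, with an edgeR adjusted p of 0.0167) was -0.04 with the length trend removed and -0.23 with the GC trend removed, and the call was lost in both, as it was without control library 1 (-0.47) or overexpression library 2 (-0.51). Pex3, the membrane receptor for Pex19, averaged 17.4 ± 1.4 CPM with overexpression and 18.7 ± 4.92 CPM in controls and was not called, although it was called lower with the GC trend removed (log2 fold change -0.46). Pex11a, which drives elongation and division, averaged 11.3 ± 1 CPM with overexpression and 11.6 ± 0.784 CPM in controls (SD, n = 4 each; log2 fold change -0.04, SE 0.13).

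Across the 12 Pex genes, 4 fell (33.3%, against 32.1% of all tested genes), none rose (against 32.3%) and 8 were not called. Their median log2 fold change was -0.12, against 4e-04 over all tested genes. All 4 that fell had control library 3 at 0.787 to 1.1 of the way from the mean of the other controls to the mean of the overexpression libraries on the log2 scale. The median position was 0.543 over the 15 called members and 0.477 over all called genes. No Pex gene had groups that did not overlap, against 56% of all tested genes. Without control library 3, 5 of 12 Pex genes were lower, against 38.7% of all tested genes, and 6 of 12 did not overlap, against 74.8%.

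**Figure D2:**
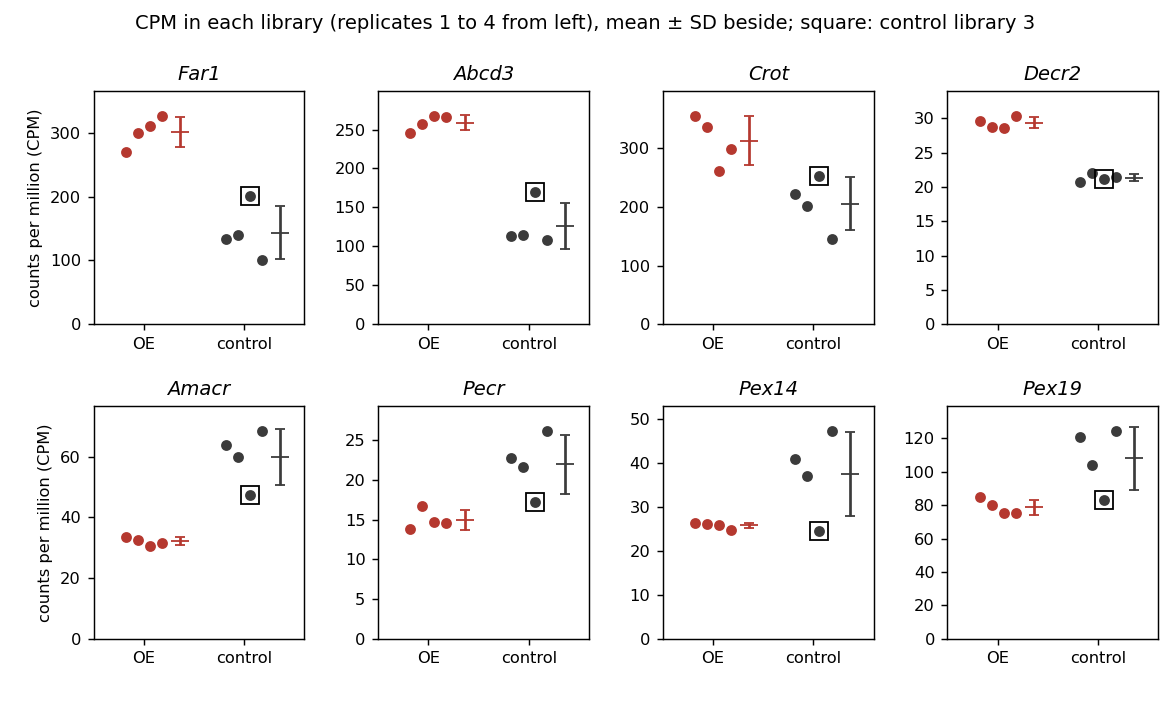
CPM of 8 called peroxisome genes in each library, overexpression left of control, with the mean and SD beside the points and a square around control library 3. The square lies within or below the overexpression points for Pex14 and Pex19, between the groups for Far1 and Abcd3, and among the other controls for Decr2.

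Enzymes of the core beta-oxidation cycle were mostly not called, and Acox3 was called higher. Acox3, an oxidase of branched-chain acyl-CoA, had 39.8, 41.4, 43.3 and 37.6 CPM with overexpression, against 30.5, 30.3, 31.3 and 34.7 CPM in controls, and the groups did not overlap. The fitted log2 fold change was 0.35 (SE 0.11, with an edgeR adjusted p of 0.0131), but the call was lost without overexpression library 3, where the value was 0.32, and the value was 0.58 with the GC trend removed but turned to -0.18 and was not called with the length trend removed, its exonic length being 11521 bases. Acox2, the oxidase of bile acid precursors, was low in both groups, at 5.64 ± 1.95 CPM with overexpression and 5.68 ± 1.23 CPM in controls (SD, n = 4 each; log2 fold change -0.02, SE 0.25).

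The bifunctional enzymes and thiolases of the cycle were not called. Hsd17b4, the D-bifunctional protein, had 177, 181, 169 and 166 CPM with overexpression, against 185, 213, 190.4 and 199.7 CPM in controls. Its groups did not overlap, yet the log2 fold change of -0.18 (SE 0.10) did not pass in edgeR's quasi-likelihood test (adjusted p = 0.117). It passed without control library 3 at -0.23, with the GC trend removed at -0.19 and with limma-voom with quality weights at -0.19. The value was -0.0087 with the length trend removed and -0.058 with library totals alone, not called in either. Ehhadh, the L-bifunctional protein, averaged 7.1 ± 1.78 CPM with overexpression and 5.96 ± 1.46 CPM in controls (SD, n = 4 each; log2 fold change 0.25, SE 0.21). Acaa1a, the main 3-ketoacyl-CoA thiolase, averaged 119.5 ± 2.23 CPM with overexpression and 134 ± 30.9 CPM in controls (SD, n = 4 each; log2 fold change -0.16, SE 0.15). Without control library 3, which read 96.2 CPM against 121 to 163 CPM in the other controls, Acaa1a was called lower at -0.32. With limma-voom with quality weights Acaa1a was also called lower, at -0.23. Its near-identical neighbour Acaa1b had 18 counts over the overexpression libraries and 33 over the controls, or 0.32 ± 0.0999 and 0.578 ± 0.217 CPM (SD, n = 4 each), and was under the count filter. Reads of these paralogues may be split or shared, and without the filter Acaa1b had a log2 fold change of -0.80 (SE 0.52, with an edgeR adjusted p of 0.210). Scp2, whose longer product is the thiolase for branched chains, averaged 66.3 ± 3.85 CPM with overexpression and 67.2 ± 5.31 CPM in controls (SD, n = 4 each; log2 fold change -0.02, SE 0.11). It was called lower with the GC trend removed, at -0.31.

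Auxiliary enzymes that prepare unusual fatty acids for beta-oxidation or export its products changed in both directions, 2 of 6 rising and 3 falling. Over all tested genes 32.3% rose and 32.1% fell. Crot, carnitine octanoyltransferase, which hands shortened acyl chains on for transport to mitochondria (chromosome 5, 8966033 to 8997324, minus strand, GRCm38), rose to 355, 336, 261 and 299 CPM with overexpression, against 223, 201, 253 and 146 CPM in controls. The groups did not overlap, but overexpression library 3 and control library 3 lay close to each other. For Crot the fitted log2 fold change was 0.61 (SE 0.16, with an edgeR adjusted p of 0.00515), and 0.30 with the GC trend removed, where it was still called. Decr2, the peroxisomal 2,4-dienoyl-CoA reductase, had 29.7, 28.8, 28.6 and 30.3 CPM with overexpression, against 20.8, 22, 21.1 and 21.4 CPM in controls, both groups being tight and well apart. Its log2 fold change was 0.46 (SE 0.11, with an edgeR adjusted p of 0.00247), and 0.76 with the length trend removed. In Decr2, unlike Crot, control library 3 lay among the other controls.

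Amacr fell the most of all 31 members. This racemase, which converts branched fatty acids and bile acid precursors to the form that the oxidases accept (chromosome 15, 10981756 to 10996626, plus strand, GRCm38), had 33.6, 32.6, 30.7 and 31.7 CPM with overexpression, against 64, 60, 47.2 and 68.5 CPM in controls. Every overexpression library lay below every control, with control library 3 the nearest. Amacr had a log2 fold change of -0.90 (SE 0.13, with an edgeR adjusted p of 7.33e-05), and -0.57 with the length trend removed. Pecr, a trans-2-enoyl-CoA reductase, had 13.8, 16.7, 14.7 and 14.6 CPM with overexpression, against 22.8, 21.6, 17.2 and 26.2 CPM in controls. Pecr had a log2 fold change of -0.55 (SE 0.15, with an edgeR adjusted p of 0.00531), which became 0.04 and was not called with the length trend removed, its exonic length of 1516 bases being the shortest among the members. Genes on the opposite strand overlap 11.5% of the exonic bases of Pecr, 7.16% of Pex16 and 6.08% of Acox3, with the same limit as for Pex14. Eci2, an enoyl-CoA isomerase, had 67.2, 72, 73.8 and 70.7 CPM with overexpression, against 80.4, 92.1, 87 and 80.8 CPM in controls. The groups did not overlap, and the log2 fold change of -0.26 (SE 0.10) was close to the threshold (edgeR's quasi-likelihood test, adjusted p = 0.0362, and 0.00042 to 0.274 over 18 alternatives), the call being lost in 9 of them, including those without overexpression library 1, 2, 3 or 4 or without control library 2. With the GC trend removed Eci2 was called at -0.43. Ech1, a dienoyl-CoA isomerase found in peroxisomes and mitochondria, averaged 136 ± 4.1 CPM with overexpression and 161 ± 42.3 CPM in controls (SD, n = 4 each; log2 fold change -0.24, SE 0.16). It was not called, but was called lower without control library 3, at -0.42, and with limma-voom with quality weights, at -0.32.

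Phyh fell and catalase was not called. Phyh, phytanoyl-CoA hydroxylase, the first enzyme of alpha-oxidation, had 17.7, 17.5, 14 and 16.8 CPM with overexpression, against 25.2, 22, 25 and 22.7 CPM in controls, with no overlap and with control library 3 among its group. This gave a log2 fold change of -0.52 (SE 0.13, with an edgeR adjusted p of 0.00289), but it was -0.06 and not called with the length trend removed. Cat, catalase, the most abundant member, had 408, 373, 379.5 and 388 CPM with overexpression, against 416, 417, 455 and 441 CPM in controls. Every overexpression value lay below every control value, by a small margin, and the log2 fold change of -0.16 (SE 0.10) did not pass (edgeR adjusted p of 0.164). With the GC trend removed catalase was called lower, at -0.20.

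Within ether lipid synthesis, Far1 and Agps rose and Gnpat was not called. Far1, which makes the fatty alcohol used for the ether bond and sets the pace of the pathway (chromosome 7, 113513834 to 113571511, plus strand, GRCm38), had 269.7, 299.6, 311 and 326 CPM with overexpression, against 134, 139, 200 and 100.4 CPM in controls. The overexpression libraries were all higher than the controls, and control library 3 lay about midway between its group and the overexpression libraries. In the fit Far1 changed by a log2 fold change of 1.07 (SE 0.17, with an edgeR adjusted p of 0.000176), with values of 0.79 with the length trend removed, 0.74 with the GC trend removed and 1.25 without control library 3. Agps, which places the fatty alcohol on the glycerol backbone, had 133, 151, 155 and 153 CPM with overexpression, against 87.8, 94.6, 144 and 72.7 CPM in controls. Control library 3 was inside the overexpression range, and the groups overlapped for that reason. The fitted log2 fold change was 0.57 (SE 0.18, with an edgeR adjusted p of 0.0125). The value was 0.20 with the length trend removed, where the call was lost, and 0.21 with the GC trend removed, where it was kept. Gnpat, the acyltransferase that starts the pathway, averaged 104 ± 3.92 CPM with overexpression and 110.5 ± 8.5 CPM in controls (SD, n = 4 each; log2 fold change -0.09, SE 0.10).

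Both tested ABC transporters rose. Abcd3, also known as PMP70, which carries branched-chain and dicarboxylic acyl-CoA and bile acid precursors into the peroxisome (chromosome 3, 121758774 to 121815302, minus strand, GRCm38), had 245, 258, 267 and 266 CPM with overexpression, against 113, 114, 169.7 and 109 CPM in controls. The overexpression libraries were tight and far above the controls, among which library 3 was the highest. For Abcd3 the fitted log2 fold change was 1.04 (SE 0.14, with an edgeR adjusted p of 5.63e-05), with values of 0.85 with the length trend removed and 0.75 with the GC trend removed. Abcd4, a family member placed in lysosomes, where it serves vitamin B12 transport, had 15.5, 17, 20.2 and 15 CPM with overexpression, against 13.8, 10.1, 10.8 and 12.8 CPM in controls, with no overlap. Its log2 fold change was 0.52 (SE 0.15, with an edgeR adjusted p of 0.00842), and 0.21 and not called with the length trend removed. Abcd2, a transporter of very long chains, had 4 counts over the overexpression libraries, which were 0, 0.11, 0.174 and 0 CPM in libraries 1 to 4, and 4 counts over the controls, which were 0, 0.0536, 0.187 and 0 CPM. The ratio of overexpression to control for Abcd2 was 1.08 after allowing for depth (exact 95% limits of 0.201 and 5.79, which cover counting error only), which at this depth leaves no detectable difference.

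Set side by side, Pex genes and matrix enzymes had medians of similar size in the uncorrected fit. The 16 tested matrix enzymes had 4 higher, 4 lower and 8 not called, with a median log2 fold change of -0.13 (range -0.90 to 0.61), against -0.12 (range -0.63 to 0.21) for the 12 Pex genes with 0 higher and 4 lower. Among matrix enzymes 25% were higher and 25% lower, among Pex genes 0% and 33.3%, and among all tested genes 32.3% and 32.1%. The difference of the medians, Pex genes minus matrix enzymes, was 0.0083, against an SD of 0.18 between libraries of a group for the same difference. It was -0.25 with the GC trend removed. With the length trend removed the medians were -0.077 for Pex genes and 0.076 for matrix enzymes. Both medians were near 0 with scaling by library totals alone, 0.010 for Pex genes and 0.0031 for matrix enzymes, a scaling that moved the median of all tested genes to 0.13. In single libraries, the median log2 deviation from the control mean was -0.16 to -0.10 for Pex genes and -0.12 to -0.10 for matrix enzymes with overexpression. In controls it was 0.15, -0.03, -0.28 and 0.18 for Pex genes in libraries 1 to 4, a wider spread than the -0.05, -0.01, 0.06 and -0.03 of matrix enzymes. The 33 members took 0.290% to 0.296% of all counts with overexpression and 0.231% to 0.264% in controls. This share weighs members with many counts most, and 7 members rose while 8 fell. Pex genes took 0.0579% to 0.0604% with overexpression and 0.0557% to 0.0624% in controls. Matrix enzymes took 0.167% to 0.180% and 0.151% to 0.170%.

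The members that rose were longer than those that fell. Median exonic length was 8006 bases for the 7 that rose, 2952 bases for the 8 that fell and 3645 bases for the 16 not called. The same order held over all tested genes, whose median log2 fold change was -0.53 in the shortest of 5 equal bins of length (231 to 2522 bases) and 0.49 in the longest (7642 bases and over). With the length trend removed, Abcd3, Crot, Decr2, Far1 and Pex2 were called higher and Amacr, Eci2, Pex7, Pex10, Pex14 and Pex19 lower. Of these 11, Pex2 was called in the opposite direction with the GC trend removed, Pex10 was not called there, and Pex7 was called lower in both corrected fits but not in the uncorrected one. The remaining 8 were called in the same direction in all 3 fits.

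**Figure D3:**
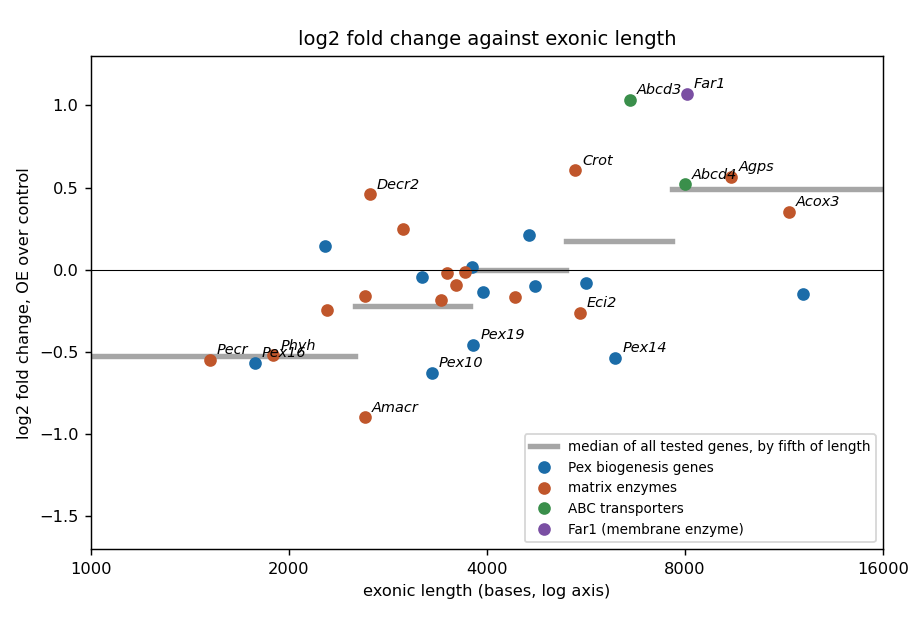
Log2 fold change (overexpression over control) of the 31 tested members against exonic length on a log axis, with the called members named and grey bars for the median of all tested genes in each of 5 equal bins of length. Far1 and Abcd3 lie above the bars of genes of their length, Amacr and Pex14 below, and Pecr, Phyh, Pex16, Agps, Abcd4 and Acox3 lie near them.

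Per kilobase of exonic length, catalase stood first in both groups, at 148 ± 5.8 CPM per kilobase with overexpression and 165 ± 7.38 CPM per kilobase in controls (SD, n = 4 each). Ech1, Crot and Hsd17b4 followed with overexpression, at 59.6 ± 1.79, 57.3 ± 7.61 and 50.9 ± 2.05 CPM per kilobase, and Ech1 and Crot were within 1 SD of each other there. In controls the order was Ech1 at 70.6 ± 18.5, Hsd17b4 at 57.8 ± 3.56 and Crot at 37.7 ± 8.3 CPM per kilobase, Ech1 and Hsd17b4 not differing beyond their SD. Abcd3 held place 6 of 33 with overexpression and place 12 in controls, at 39.3 ± 1.54 and 19.2 ± 4.41 CPM per kilobase. Far1 held places 7 and 13, at 37.4 ± 2.94 and 17.8 ± 5.15 CPM per kilobase, within 1 SD of Abcd3 in each group. Amacr held place 16 with overexpression and place 10 in controls. Among Pex genes the ligase subunit Pex2 was highest, at 40.0 ± 2.14 and 36.2 ± 5.76 CPM per kilobase, and its partner Pex10 the lowest, at 1.93 ± 0.273 and 2.99 ± 0.671 CPM per kilobase. Exonic length was the union of all annotated exons, so levels of genes with long rare exons would be understated. Exon use was not measured, including that of Pex7, the longest member, and the values with the length trend removed rest on the same lengths.

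**Figure D4:**
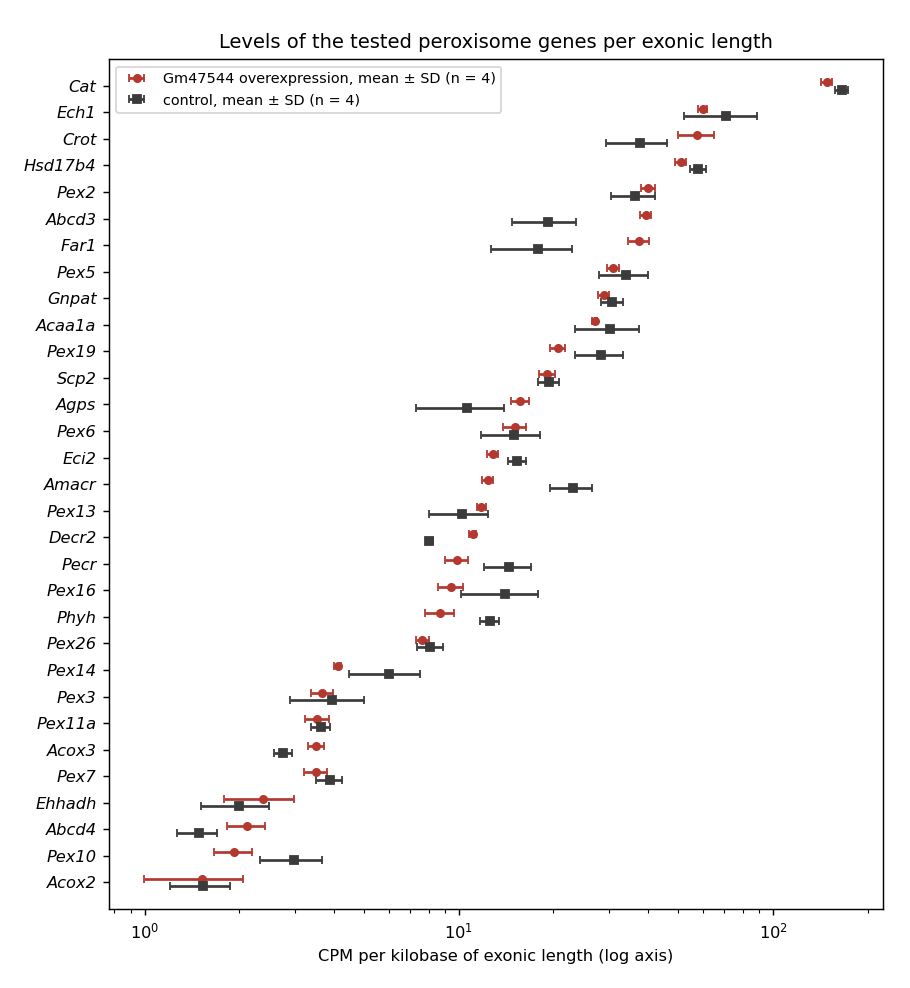
Level of the 31 tested members in CPM per kilobase of exonic length on a log axis, as mean and SD of 4 overexpression libraries (circles) and 4 control libraries (squares). Cat, the highest, lies at 148 and 165, and the lowest are Acox2 at 1.52 with overexpression and Abcd4 at 1.48 in controls.

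Other peroxisome genes, 48 listed by function, are given for comparison with the members. The list was drawn up with earlier results of these data known, so it is not independent of them. Of the 39 that passed the filter, 17 rose and 13 fell (76.9%, against 64.4% of all tested genes), with a median log2 fold change of -0.08, and 15 of 39 were called with a change of at least 2-fold, against 20.5% of all tested genes. Hao2, an L-2-hydroxy acid oxidase, had 5.66, 9.09, 11.2 and 13.6 CPM with overexpression, against 0.354, 0.429, 0.812 and 0.384 CPM in controls, a log2 fold change of 4.26 (SE 0.34). Baat, which joins bile acids to amino acids, rose by a log2 fold change of 3.37 (SE 0.48) on 92 overexpression and 9 control counts. Acnat1 and Acnat2, acyl-CoA amino acid N-acyltransferases of mice, averaged 44 ± 2.71 and 12.3 ± 1.54 CPM with overexpression, against 7.7 ± 1.71 and 1.93 ± 0.56 CPM in controls (SD, n = 4 each). Acnat1 and Acnat2 are similar in sequence, so their reads may be shared. Among the largest falls, Gstk1, a glutathione transferase, had log2 fold change -1.39 (SE 0.14), Dhrs4, a retinal and ketone reductase, -1.19 (SE 0.15), Fis1, a fission adaptor that also sits on mitochondria, -1.16 (SE 0.16), and Pxmp2, a channel of the peroxisomal membrane, -1.12 (SE 0.28). With the length trend removed these 4 values were -0.80, -0.67, -0.61 and -0.41, and the Pxmp2 call was lost.

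Of the 6 receptors and coactivators listed as regulators of peroxisome genes, 4 passed the filter. Of these, 1 was called, lower (25%, against 64.4% of all tested genes called and 32.1% called lower). It was Ppard, a receptor of the PPAR family. Ppard had 31.2, 33.5, 30.2 and 29.6 CPM with overexpression, against 41.6, 36.9, 33.2 and 48 CPM in controls. Control library 3 lay just below overexpression library 2, so the groups overlapped. Ppard had a log2 fold change of -0.36 (SE 0.13, with an edgeR adjusted p of 0.0294), a call lost in 8 of 18 alternatives. Ppara, Rxra and Ppargc1a were not called, with log2 fold changes of 0.30 (SE 0.26), 0.03 (SE 0.11) and -0.23 (SE 0.21). Ppargc1b and Pparg were under the filter. In the fit without it Ppargc1b was called lower (log2 fold change -1.85, with an edgeR adjusted p of 0.0439) and Pparg was not called (0.58).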

How the data were processed

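Trizol-extracted RNA was sequenced from NEBNext Ultra libraries, per the labels' protocols. The deposited file holds raw counts, unnormalized, by gene symbol. FastQC, STAR, HTSeq and mm10 are named in the submitters' processing notes. Tool versions, annotation and strand setting: not given in the sources used here. Sample titles gave the groups.

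Members and gene lists were chosen with earlier results of these data known. In R 4.3.3, edgeR 4.0.16 was fitted to the counts: filterByExpr with a minimum count of 10 kept 11520 of 16281 genes with a count, TMM factors set the scaling, and the quasi-likelihood test (two-sided) gave p-values adjusted by Benjamini-Hochberg over all tested genes. CPM uses the scaled library sizes, and SE is the size of the fitted log2 change over the root of its F statistic. The filter kept members with 648 to 46590 counts over the 8 libraries. Exonic length, GC content of the longest transcript and positions came from GENCODE M21 (GRCm38, the assembly that mm10 names), which matched 21926 of 21983 symbols. By rule, up to 3 called members per role and direction with the largest log2 fold change, and members under 50 counts, are given by library; those of Pex5, Hsd17b4 and Cat were added after their values were seen. Of the other peroxisome genes and regulators, up to 4 called per direction with the largest log2 fold change are named. Alternatives were other scalings and filters, DESeq2 1.42.0, limma 3.58.1 voom with quality weights, a replicate block, leaving out each library, and lowess trends (span 0.3) on length or GC content removed from each library. Chi-square per gene between libraries of a group was 2.46 to 108, so no pair was a repeat deposit of one library. The fit was tested on simulated data. Figures used matplotlib 3.10.9.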

Additional observations from a re-analysis of the deposited data

Results flagged for a closer look

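Among 66 sets of 4 libraries (33 members in each group), 2 held a library whose gap to the nearest other library passed Dixon's 95% critical value, and chance alone gives about 1 in 20. Abcd3 was at 169.7 CPM in control library 3, against 109 to 114 CPM in the other controls. Ech1 was at 130.1 CPM in overexpression library 2, against 137 to 139 CPM in the other overexpression libraries.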

How the results depend on the processing

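Counts of members called higher ran from 5 with the length trend removed to 10 with the GC trend removed (7 as reported), and counts called lower from 6 to 12 (8 as reported), while 60.4% of all tested genes were called with the length trend removed and 71.3% with the GC trend removed. With limma-voom with quality weights 7 members were called higher and 12 lower, in a fit that called 77.4% of all tested genes. Deviations of same-numbered libraries from their group means correlated at 0.0227, -0.0110, -0.0773 and -0.119, and those of libraries with different numbers at -0.0738 to 0.128. No shared variation was therefore seen between same-numbered libraries. Whether they were grown or prepared together is not stated in the labels, and these correlations cannot decide it. With the replicate block 7129 genes were called in place of 7417, and 7 members were higher and 7 lower, Eci2 being the call lost. The matrix enzyme median moved by more than the SD between libraries (0.0319) to 0.0031 with library totals alone, 0.076 with the length trend removed and 0.027 with the GC trend removed. It also moved by more than this SD to -0.18 with no count filter and to -0.16 without Agps and Gnpat. Both of these medians rest on a changed set of genes, Acaa1b making 17 tested enzymes in place of 16 with no count filter. With single libraries left out the matrix enzyme median ran from -0.16 to -0.10. The Pex minus matrix enzyme median was -0.25 with the GC trend removed.

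Log2 fold changes that turned sign belonged to Acox3 and Pecr, which were called, and to members that were not called. With the length trend removed they were Acox3 -0.18, Pecr 0.038, Acox2 0.10, Cat 0.15, Ech1 0.16, Gnpat 0.049, Pex11a 0.17 and Scp2 0.14. With the GC trend removed they were Acaa1a 0.17, Acox2 0.16, Ech1 0.077, Pex13 -0.16, Pex2 -0.22, Pex26 0.23 and Pex5 0.19. With library totals alone they were Acox2 0.10, Gnpat 0.030, Pex11a 0.081, Pex26 0.049, Pex3 0.019, Pex5 0.0015 and Scp2 0.10. With limma-voom they were Acox2 0.12, Pex3 0.071 and Pex6 -0.072, with a minimum count of 50 Acox2 0.0078 and Scp2 0.0039, and with no count filter Pex6 -0.0075. With single libraries left out, those of Acox2 ran from -0.21 to 0.17, of Pex11a from -0.087 to 0.011, of Scp2 from -0.075 to 0.0070, of Pex6 from -0.14 to 0.11 and of Pex3 from -0.20 to 0.064. The cause of these turns was not tested. Targeting signals were not compared because protein sequences were not used here. Members with few counts, such as Pex10, Acox2 and Ehhadh, had SEs of 0.19, 0.25 and 0.21. The part of depth in these, beside spread between libraries, was not tested.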

Other observations

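Several peroxisome genes outside the 33 were under the count filter and were tested only in fits with another filter or fewer libraries. Dao, D-amino acid oxidase, had 53 counts over the 4 overexpression libraries and 15 over the 4 controls, and was called higher in the fit without the filter (log2 fold change 1.85) and in each other fit that tested it (1.67 to 2.47). Acot4, an acyl-CoA thioesterase, had 15 counts with overexpression and 0 in controls and was called higher in the fit without the filter, and Hacl1, the lyase that follows Phyh in alpha-oxidation, had 12 and 2 and was not called there. Agxt had 0 counts with overexpression and 3 in controls and was not called there, and Slc27a2 and Acot6 had 0 and 1 each. Acot3, Acot5 and Uox, the urate oxidase of the rodent liver peroxisome, had 0 counts in all 8 libraries.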
